A study of Mus musculus with 4 samples.

Results

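The genes described are 32 genes taken as constitutive subunits of the 26S proteasome, of 31073 genes or accessions tested on the arrays. They were chosen by symbol: the 14 genes of the 20S core, of which 7 form its alpha ring (Psma1 to Psma7) and 7 its beta ring (Psmb1 to Psmb7), and 18 genes of the 19S regulator, of which 6 are ATPases (Psmc1 to Psmc6) and 12 are not (Psmd1 to Psmd8 and Psmd11 to Psmd14). All 32 were matched to a probe through its RefSeq accession and all were well above background in both channels on all 4 arrays, so none was lost to the filter on dim probes. The arrays compared the livers of 3-month-old male C57Bl/6 mice with a mutant Wrn protein. The treated mice had 0.4% vitamin C in their drinking water from weaning, and the controls carried the same mutation and had no treatment; the allele is not given in the sources used here. Each of 4 arrays with 2 colours held 1 treated liver (Cy3) and 1 untreated liver (Cy5), and the labels call the pairs biological replicates.

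The 26S proteasome is the main protease for the regulated breakdown of proteins in the cytosol and nucleus. The regulator binds proteins tagged with ubiquitin, its ATPase ring unfolds them and feeds them into the core, and its other subunits form the lid, bind ubiquitin and cut ubiquitin chains off. The core is a barrel of stacked rings: alpha subunits gate the entrance and 3 of the beta subunits, encoded by Psmb5, Psmb6 and Psmb7, carry the active sites. When proteasome activity falls, the transcription factor encoded by Nfe2l1 raises the subunit genes together, with small Maf proteins as partners at antioxidant response elements.

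Each value is the log2 of the vitamin C signal over the untreated signal at a gene's brightest probe, given per array or as a mean ± SD (n = 4). Its direction was taken from the labelled dyes and is opposite to the sign of the authors' deposited table. With 0 arrays dye-swapped, treatment and dye bias cannot be told apart. Median spot intensities were 379.5 to 530 (Cy3) and 813 to 962 (Cy5), where negative controls had 62 to 67 and 66 to 80. The log2 intensities of the 32 subunit probes, averaged over both channels, ran from 10.4 to 15.9 with a median of 14.4, and 31 of them lay between 12 and 16. The median ratio of the 4881 genes in that band was 0.013, and that of all 31073 genes was -0.015. All 6 hepatocyte markers tested, among them Alb, were well above background in both channels on all 4 arrays. Their summed signal was 586401 to 800695 in treated and 795832 to 1011598 in untreated livers, and their array medians were -0.0036, -0.23, -0.12 and -0.14; the median ratio of all 153 genes of log2 intensity 17 to 19, where Alb also lay, was -0.30. The part of these markers in the subunit ratios was not tested. In whole tissue, fewer cells of a type and less RNA per cell cannot be told apart.

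The promoters of a few subunit genes are shown because coordinated control of this gene set is attributed to elements in them. The 250 bases before the annotated start are given 5' to 3' along the gene's strand, from RefSeq's GRCm38.p6 annotation, with matches to the antioxidant response element core TGACNNNGC and the CCAAT box, on either strand, in capitals. Psmb5 and Psmb6 hold the antioxidant element, Psma7 holds a CCAAT box, and Psma4 holds neither. Psma7 and Psmb5 had the highest mean ratios of the 32 genes and Psma4 the lowest. A relation of motif to ratio was not tested.
Psmb5 (chr14:54617996-54618245, minus strand): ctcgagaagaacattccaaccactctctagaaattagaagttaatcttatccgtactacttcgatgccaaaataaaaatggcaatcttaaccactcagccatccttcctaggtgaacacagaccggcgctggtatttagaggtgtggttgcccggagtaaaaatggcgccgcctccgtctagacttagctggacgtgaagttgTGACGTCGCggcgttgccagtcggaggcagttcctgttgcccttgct
Psmb6 (chr11:70525107-70525356, plus strand): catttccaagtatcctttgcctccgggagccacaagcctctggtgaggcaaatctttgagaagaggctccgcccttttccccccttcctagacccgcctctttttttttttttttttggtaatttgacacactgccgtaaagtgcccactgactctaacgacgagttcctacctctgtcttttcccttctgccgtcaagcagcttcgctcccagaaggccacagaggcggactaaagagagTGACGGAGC
Psma7 (chr2:180042465-180042714, minus strand): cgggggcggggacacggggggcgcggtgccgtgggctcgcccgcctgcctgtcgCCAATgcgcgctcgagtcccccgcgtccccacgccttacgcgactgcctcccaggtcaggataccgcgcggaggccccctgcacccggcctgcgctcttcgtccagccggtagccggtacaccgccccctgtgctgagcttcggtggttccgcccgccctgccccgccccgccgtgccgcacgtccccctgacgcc
Psma4 (chr9:54950609-54950858, plus strand): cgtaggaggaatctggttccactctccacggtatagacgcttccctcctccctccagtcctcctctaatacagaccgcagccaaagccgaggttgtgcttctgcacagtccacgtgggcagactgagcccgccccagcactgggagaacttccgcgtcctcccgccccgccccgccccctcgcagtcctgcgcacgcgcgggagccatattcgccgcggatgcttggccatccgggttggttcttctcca
The element starts 47 bases before the start of Psmb5 and 9 bases before that of Psmb6, and the CCAAT box 196 bases before that of Psma7. A window from 250 bases before to 50 after the start was found for 26 of the 32 genes. None was found for Psmb1, Psmb2, Psmb7, Psmc3, Psmd3 or Psmd7, whose mean ratios were 0.028, 0.18, 0.073, -0.0068, 0.15 and 0.24. TGACNNNGC was present in 4 of the 26 (15.4%), Psmb5, Psmb6, Psmc6 and Psmd12, against 14% of 27025 genes with such a window. CCAAT was present in 10 (38.5%), against 41.1% of all genes. The 2 motifs shared no bases in these windows. The median ratio was 0.11 over the 4 subunit genes with the antioxidant element and 0.055 over the 22 without. The 4 means were 0.26 (Psmb5), 0.14 (Psmb6), 0.040 (Psmc6) and 0.076 (Psmd12). With and without CCAAT the medians were 0.055 and 0.056. A match of letters is not evidence of a site in use.

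No subunit gene passed the threshold. In limma's test of vitamin C against untreated livers, 0 of 32 had an adjusted p under 0.05, where 0% of all 31073 genes did. At an unadjusted p under 0.05, 3463 genes were higher and 5138 lower. The smallest adjusted p among the subunits was 0.144 (limma). It was also the smallest over all 31073 genes, so an adjusted p of 0.144 does not set a gene apart. The mean ratio was above 0 for 23 subunit genes and below 0 for 9, the means ran from -0.29 to 0.27 and the median was 0.056. It was above 0 for 14317 of all 31073 genes, and for 2580 of the 4881 genes of log2 intensity 12 to 16. The subunit median turned to -0.092 when arrays were centred without loess. That setting also moved the 4881 genes of log2 intensity 12 to 16 to a median of -0.12. At an unadjusted p under 0.05 there were 7 subunit genes higher, where 11.1% of all genes were (16.9% of genes with a log2 intensity of 12 to 16), and 2 lower, where 16.5% were (18.6% in that band). Without loess these counts became 0 higher and 6 lower, and 18 of the 23 genes with a mean above 0 turned to below 0; Psma7, Psmb2, Psmb5, Psmc1 and Psmd7 stayed above. On all 4 arrays 11 subunit genes lay above 0, where 14.9% of all genes did (19.8% in the band), and 3 lay below 0, where 16.1% did (14.1% in the band).

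**Figure D1:**
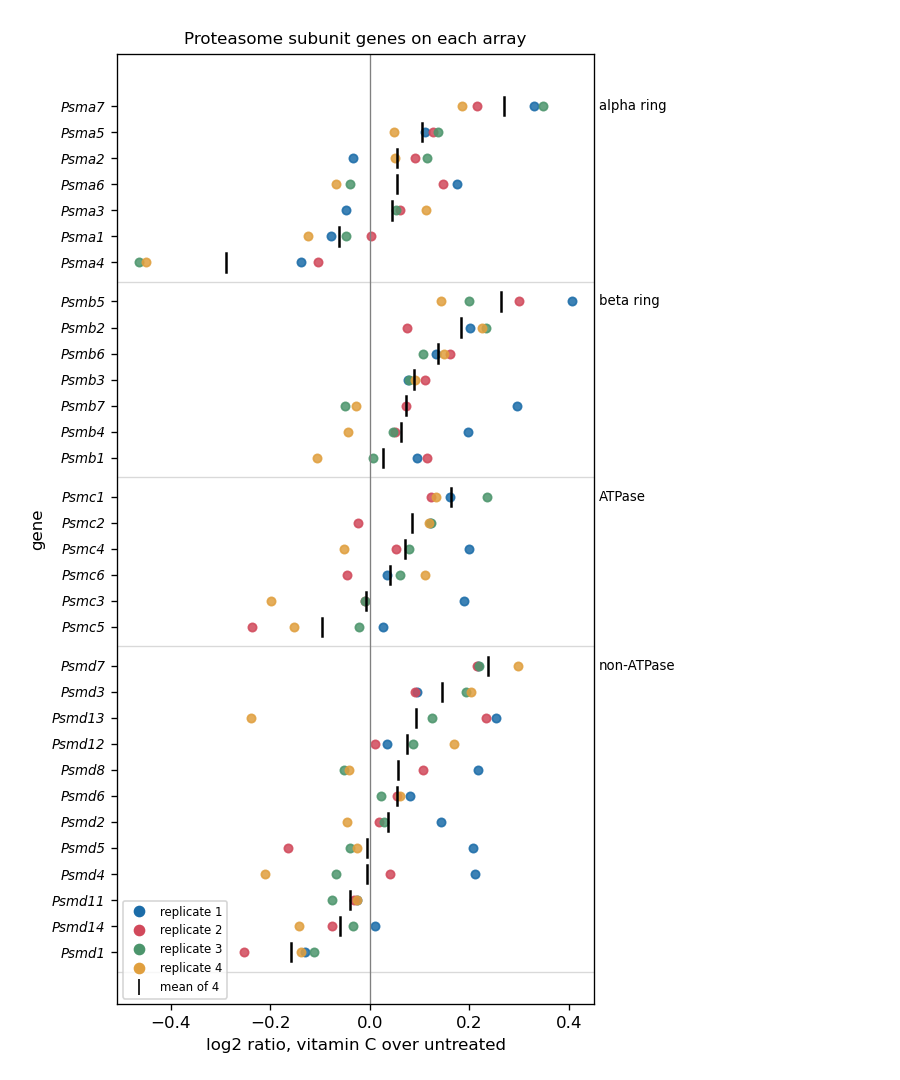
Log2 ratio of vitamin C over untreated (x axis) for each of the 32 proteasome subunit genes (y axis), by structural group and ordered by mean. Points are the 4 replicates and black bars their mean; Psma7 and Psmb5 have the highest means (0.27 and 0.26) and Psma4 the lowest (-0.29); many of the other genes have points on both sides of 0.

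In the alpha ring, 5 of 7 genes had a mean above 0 and the ring held both the highest and the lowest gene of the whole particle. Psma7, which encodes an alpha subunit of the outer ring, had ratios of 0.33, 0.22, 0.35 and 0.19 on replicates 1 to 4, a mean of 0.27 ± 0.081 (SD, n = 4), a fold of 1.21. All 4 arrays lay above 0, with an unadjusted p of 0.0023 and an adjusted p of 0.144 (limma). Psma4, an alpha subunit of the same ring, had ratios of -0.14, -0.10, -0.46 and -0.45, a mean of -0.29 ± 0.19 and a fold of 0.819 (adjusted p = 0.145, limma). Its ratio was below 0 on all 4 arrays and lower on replicates 3 and 4 than on the other two. A second Psma4 probe gave -0.094, -0.069, -0.41 and -0.53, so both probes were lower on replicates 3 and 4. The other 5 genes had means of -0.062 to 0.11: Psma5 was above 0 on all 4 arrays (0.11 ± 0.039), Psma2 and Psma3 on 3, Psma6 on 2, and Psma1 was at 0.0030 on replicate 2 and below 0 on the other 3.

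In the beta ring all 7 genes had a mean above 0, from 0.028 to 0.26. Of the 7, 3 had an unadjusted p under 0.05 as higher (limma), where 11.1% of all genes did. All 7 lay at a log2 intensity of 12 to 16, where 16.9% of genes did. Psmb5, whose product carries the chymotrypsin-like active site, had 0.41, 0.30, 0.20 and 0.14 on replicates 1 to 4, a mean of 0.26 ± 0.12 (SD, n = 4) and a fold of 1.20 (adjusted p = 0.144, limma). Psmb2, a subunit without an active site, had 0.20, 0.075, 0.23 and 0.23, a mean of 0.18 ± 0.074 (adjusted p = 0.144, limma), but 0.012 with Agilent's processed signals. Psmb6, whose product carries the caspase-like site, had 0.13, 0.16, 0.11 and 0.15, a mean of 0.14 ± 0.024 (adjusted p = 0.148, limma), and 0.029 with processed signals. These 3 genes were above 0 on all 4 arrays, and so was Psmb3 (0.090 ± 0.016), while Psmb4 (0.064 ± 0.10) was below 0 on replicate 4. The third gene of an active site, Psmb7, of the trypsin-like activity, had 0.30, 0.073, -0.050 and -0.027, a mean of 0.073 ± 0.16 with 2 arrays on each side of 0. Psmb1 had the lowest mean of the ring, with 0.096, 0.11, 0.0062 and -0.11 and a mean of 0.028 ± 0.10. Without loess 5 of the 7 genes were below 0: Psmb1 (-0.11), Psmb3 (-0.094), Psmb4 (-0.13), Psmb6 (-0.025) and Psmb7 (-0.042).

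The 6 ATPases, which form the ring that unfolds the substrate, had means of -0.096 to 0.16, with 4 above 0. Psmc1 was the highest, with 0.16, 0.12, 0.24 and 0.13 on replicates 1 to 4 and a mean of 0.16 ± 0.051 (SD, n = 4, adjusted p = 0.145, limma). It was the one ATPase gene above 0 on all 4 arrays. Psmc5 was the lowest, with 0.028, -0.24, -0.022 and -0.15, a mean of -0.096 ± 0.12 (adjusted p = 0.327, limma). The sign of Psmc5 depended on the probe: a second, dimmer probe had 0.27, 0.10, 0.12 and -0.27, a mean of 0.056 ± 0.23. With Agilent's processed signals the brighter probe stood at 0.0037. Psmc2 had 0.12 on each of replicates 1, 3 and 4 and -0.023 on replicate 2. Psmc3, Psmc4 and Psmc6 had means of -0.0068 to 0.070, each with arrays on both sides of 0.

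The non-ATPase subunits had the widest span of the regulator, with means of -0.16 to 0.24 and 7 of 12 above 0. Psmd7, a lid subunit that pairs with the deubiquitinase of the lid, had 0.22, 0.22, 0.22 and 0.30 on replicates 1 to 4, a mean of 0.24 ± 0.040 (SD, n = 4), a fold of 1.18 and the smallest unadjusted p of the 32 genes (0.0021; adjusted p = 0.144, limma). Replicate 4 was the highest and the other 3 were alike. A second, dimmer Psmd7 probe did not show this: it had 0.30, 0.17, -0.17 and -0.23, a mean of 0.017 ± 0.25. Psmd3, another lid subunit, had 0.096, 0.091, 0.19 and 0.20, a mean of 0.15 ± 0.060 (adjusted p = 0.151, limma), 0.22 with processed signals and -0.035 without loess. Psmd1, a scaffold of the regulator's base that ubiquitin receptors bind to, had -0.13, -0.25, -0.11 and -0.14, a mean of -0.16 ± 0.064 and a fold of 0.896 (adjusted p = 0.146, limma), but -0.042 with processed signals. It was below 0 on all 4 arrays, as was the lid subunit gene Psmd11 (-0.040 ± 0.024), which was at 0.085 with processed signals. Psmd14, which encodes the deubiquitinase of the lid, had 0.010, -0.076, -0.033 and -0.14, a mean of -0.060 ± 0.065 (adjusted p = 0.430, limma); with processed signals it was at -0.20. Its second probe had 0.065, 0.023, 0.12 and -0.17, a mean of 0.0096 ± 0.12. Psmd6 and Psmd12 were above 0 on all 4 arrays with means of 0.055 and 0.076. Psmd2, Psmd4, Psmd5, Psmd8 and Psmd13 had means of -0.0065 to 0.093 with arrays on both sides of 0. Of the 32 genes, 8 had more than 1 probe above background, and the means of these probes differed in sign for 2, Psmc5 and Psmd14.

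The medians of the structural groups lay close together. The core had a median of 0.068, the ATPases 0.055 and the non-ATPases 0.046. Without replicate 1 these became 0.080, 0.035 and 0.0025, and the median of all 32 genes went from 0.056 to 0.033. On replicates 1 to 4 the core was at 0.12, 0.10, 0.065 and 0.049, the ATPases at 0.14, -0.016, 0.070 and 0.030, and the non-ATPases at 0.12, 0.030, -0.0053 and -0.034. The pooled core was thus above 0 on all 4 arrays, and each of the regulator groups was below 0 on at least 1. This did not hold for each ring of the core. The beta ring was at 0.20, 0.11, 0.079 and 0.092, and the alpha ring at -0.034, 0.091, 0.052 and 0.049. The alpha ring was thus below 0 on replicate 1. Its median over genes was 0.054, against 0.090 for the beta ring and 0.055 for the ATPases. Taken array by array, the median of the core minus that of the ATPases was 0.028 ± 0.062 (SD, n = 4), with 2 arrays on each side of 0. The core minus the non-ATPases was 0.057 ± 0.037 and above 0 on all 4 arrays, at 0.0029, 0.072, 0.071 and 0.083. The ATPases minus the non-ATPases gave 0.029 ± 0.055. Within the core, the alpha ring lay below the beta ring on all 4 arrays: alpha minus beta was -0.23, -0.021, -0.026 and -0.043, a mean of -0.081 ± 0.10, and replicate 1 stood farthest from 0. The members of a group are not replicates, and the smallest two-sided p of an exact sign-flip test over 4 arrays is 0.125, so these differences were not tested. Without loess the medians were -0.082 for the core, -0.10 for the ATPases and -0.097 for the non-ATPases.

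**Figure D2:**
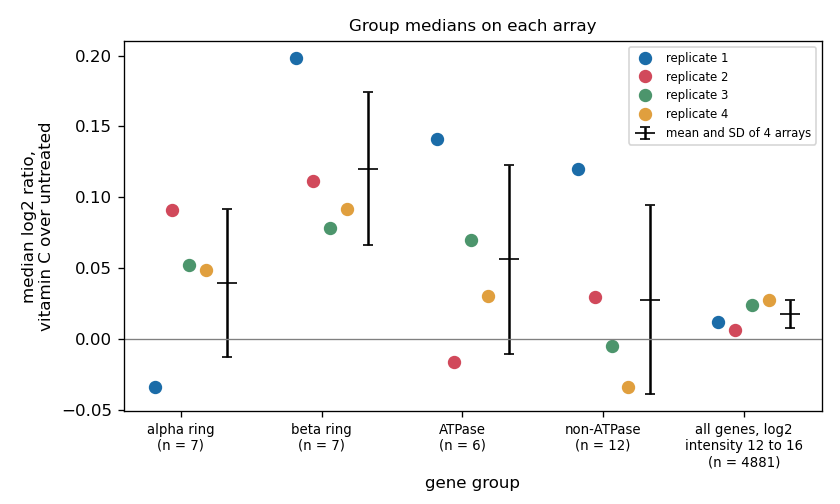
Median log2 ratio of vitamin C over untreated (y axis) in each group of subunit genes and in all genes of log2 intensity 12 to 16 (x axis). Coloured points are the 4 arrays and black marks their mean and SD. The 4 subunit groups have overlapping values, from -0.034 to 0.20. The 4881 genes lie at 0.0062 to 0.027, and a median over that many genes varies less than a median over 6 to 12 genes. Without loess the median over genes of each subunit group lies below 0.

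The arrays were more alike over the subunit genes than over all genes where replicate 2 was involved. Across all 31073 genes the ratios of replicate 2 correlated with those of replicates 1, 3 and 4 at r = 0.020, -0.15 and -0.18, and across the 4881 genes of log2 intensity 12 to 16 at 0.050, -0.14 and -0.14. Across the 32 subunit genes the same 3 values were 0.63, 0.61 and 0.45. Between replicates 1, 3 and 4 the subunit genes gave 0.54, 0.30 and 0.81 and all genes gave 0.72, 0.60 and 0.78. These are correlations across genes, which are not independent replicates. The 4 arrays share their probes and dye orientation, and the part of a probe's dye effect in this likeness was not tested.

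**Figure D3:**
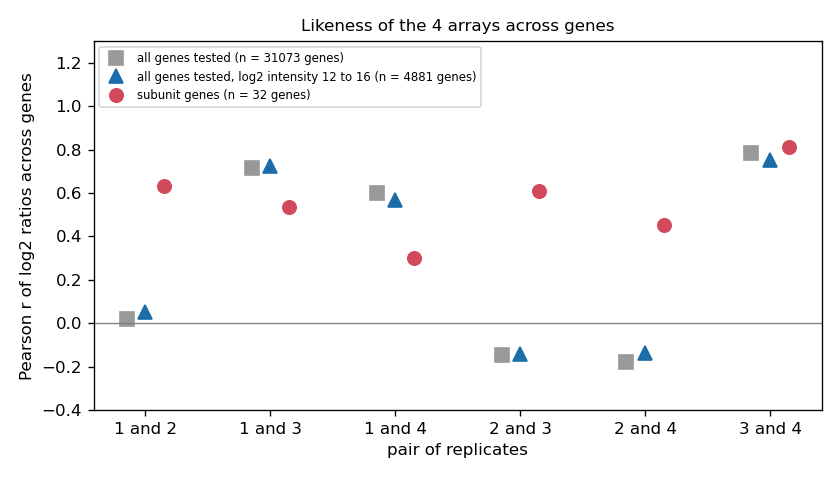
Pearson r of the log2 ratios across genes (y axis) for each pair of the 4 replicates (x axis), over all 31073 genes (squares), the 4881 genes of log2 intensity 12 to 16 (triangles) and the 32 subunit genes (circles). For the 3 pairs that hold replicate 2, the subunit genes lie at 0.45 to 0.63 and all genes at -0.18 to 0.020.

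The count of calls among the subunits depended on replicate 2 and on the fit. Without replicate 2, 6 of the 32 passed an adjusted p under 0.05 (limma): Psma7, Psmb2, Psmb5, Psmc1 and Psmd7 higher, where 10.1% of all genes passed as higher, and Psma4 lower, where 18.1% passed as lower. When both channels were fitted separately, with arrays as random blocks, 3 passed as higher, Psma7, Psmb5 and Psmd7 (adjusted p = 0.0409, 0.0451 and 0.0363), where 1.93% of all genes did, and 0 passed as lower, where 1.23% did. Without loess 4 passed as lower, Psma1, Psma4, Psmd1 and Psmd11, where 17% of all genes did, and 0 as higher, where 14% did. With any other array left out, 0 passed.

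Of 44 other genes of the ubiquitin and proteasome pathway that were tested, of 46 listed, 0 passed over all genes; 13 had an unadjusted p under 0.05 as higher, where 11.1% of all genes did, and 4 as lower, where 16.5% did. Their median was 0.021. The assembly chaperones build the core and the regulator's base and are not part of the finished particle. Psmd5, which also encodes a chaperone of the base, was placed among the non-ATPases by its symbol and is not in this list. The 7 listed chaperones had the highest median of these lists, 0.18. Of 7 means 6 were above 0, and 5 genes lay above 0 on all 4 arrays, where 14.9% of all genes did. At an unadjusted p under 0.05, 5 of the 7 were higher, where 11.1% of all genes were, and 0 were lower. Psmg3, a chaperone of the alpha ring, had 0.53, 0.29, 0.49 and 0.32, a mean of 0.41 ± 0.12 (SD, n = 4) and a fold of 1.33 (adjusted p = 0.144, limma). Its partner Psmg4 had 0.32, 0.28, 0.33 and 0.56, a mean of 0.37 ± 0.13 and a fold of 1.29 (adjusted p = 0.144, limma). Both passed without replicate 2 (adjusted p = 0.0104 and 0.0152, limma), where 10.1% of all genes passed as higher. They also passed in the separate-channel fit (0.0216 and 0.0256), where 1.93% did. Array medians of the list were 0.32, 0.033, 0.19 and 0.13.

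The immune subunits replace the active beta subunits in cells exposed to interferon. Psmb10 had -0.00035, 0.26, 0.37 and 0.46, a mean of 0.27 ± 0.20 (SD, n = 4, adjusted p = 0.147, limma). Psmb8 had -0.11, 0.19, 0.11 and 0.15, a mean of 0.083 ± 0.13, and -0.075 with Agilent's processed signals. Psmb9 had -0.064, 0.16, 0.17 and -0.24, a mean of 0.0053 ± 0.20. Each of the 3 had arrays on both sides of 0. Markers of Kupffer cells and macrophages, 6 of 7 tested, had array medians of -0.36, 0.24, 0.048 and 0.40, all 6 were well above background on all arrays, and their summed level was 52379 to 100283 in treated and 48924 to 70316 in untreated livers; their part in these ratios was not tested. Psmb11, a subunit of the thymus, had a mean of -0.24 ± 0.16 (adjusted p = 0.146, limma) and -0.12 as the mean of all its probes. Psmb11 passed as lower without replicate 2 (adjusted p = 0.0146, limma), where 18.1% of all genes did, and without loess (0.0289), where 17% did. The genes of the 11S activator, Psme1 and Psme2, had 0.095 ± 0.095 and -0.061 ± 0.098, and Psme3, of a nuclear activator, -0.070 ± 0.054.

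Among genes that act before the particle, Ubb, a polyubiquitin gene, had -0.13, -0.29, -0.27 and -0.11, a mean of -0.20 ± 0.092 (SD, n = 4, adjusted p = 0.144, limma). It was below 0 on all 4 arrays. Other genes hold the same ubiquitin coding unit, so its signal is uncertain. It was brighter than every subunit gene, and the 292 genes of log2 intensity 16 to 17, where it lay, had a median ratio of -0.050; it stood at the very top of that band, next to the 153 genes of 17 to 19 with a median of -0.30. Ubb passed as lower without loess (adjusted p = 0.0217, limma), where 17% of all genes did. Uba1, which encodes the enzyme that activates ubiquitin, had 0.11, 0.0085, 0.17 and 0.13, a mean of 0.11 ± 0.069 (adjusted p = 0.216, limma), but -0.085 as the mean of all its probes and -0.043 without loess. Vcp, which encodes the ATPase p97 that extracts ubiquitinated proteins, had -0.15, -0.31, -0.13 and -0.12, a mean of -0.18 ± 0.088 (adjusted p = 0.146, limma), and passed as lower without loess (0.0282). Ubqln4, a shuttle factor, had 0.44, -0.0079, 0.47 and 0.48, a mean of 0.34 ± 0.24. Without replicate 2 it passed as higher (adjusted p = 0.00975, limma), where 10.1% of all genes did. Sem1, a small lid subunit outside the symbol rule, had 0.079, 0.16, 0.27 and 0.29, a mean of 0.20 ± 0.099 (adjusted p = 0.145, limma). Ublcp1, a phosphatase bound to the particle, had a mean of -0.18 ± 0.064 and was below 0 on all 4 arrays. It passed as lower without replicate 2 (adjusted p = 0.0458, limma), where 18.1% of all genes did, and without loess (0.0237), where 17% did.

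Nfe2l1 had 0.0048, -0.19, 0.17 and 0.041, a mean of 0.0052 ± 0.15 (SD, n = 4, adjusted p = 0.966, limma), and its sign turned in several settings. Nfe2l2, the related factor of the oxidative stress response, had 0.38, -0.014, 0.60 and 0.35, a mean of 0.33 ± 0.25 (adjusted p = 0.147, limma). Without replicate 2 it passed (adjusted p = 0.0126, limma), where 10.1% of all genes passed as higher. Maff, a small Maf partner, had 0.74, 0.15, 0.36 and 0.58, a mean of 0.46 ± 0.26 (adjusted p = 0.144, limma). It also passed without replicate 2 (adjusted p = 0.0122, limma) and in the separate-channel fit (0.0345), where 1.93% of all genes passed as higher. On the same arrays the median over all 32 subunit genes was 0.13, 0.058, 0.050 and -0.026. A relation over 4 arrays was not tested.

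**Figure D4:**
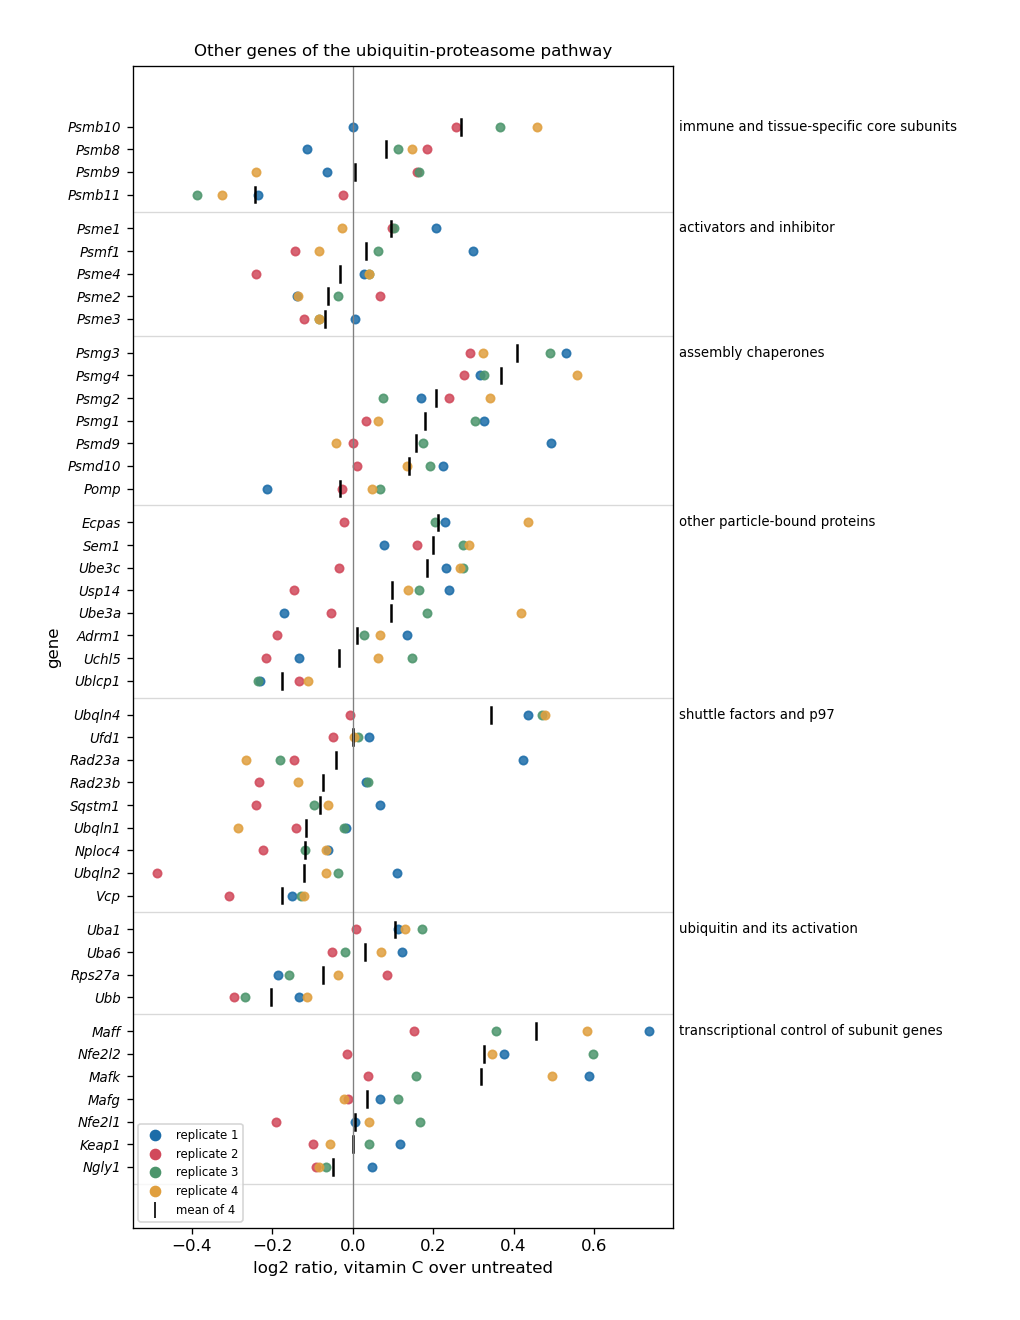
Log2 ratio of vitamin C over untreated (x axis) for 44 other genes of the ubiquitin and proteasome pathway (y axis), by list and ordered by mean. Points are the 4 replicates and black bars their mean; Psmg3 and Psmg4 lie above 0 on all 4 arrays, and Ubb below 0.

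The order of the group medians was traced through each way of processing. The median of the core was above that of the non-ATPases in the reported processing and in each of the 11 alternatives that change the subunit ratios, by 0.014 to 0.078; the other 5 leave these ratios as they are and say nothing of the order. It was above that of the ATPases in 9 of the 11, the exceptions being Agilent's processed signals (-0.0030) and the fit without replicate 2 (-0.0022). After subtraction of a running median along intensity, the medians were 0.053 for the core, 0.018 for the ATPases and 0.000057 for the non-ATPases. These orders are those of the pooled core. The alpha ring alone lay below the non-ATPases with Agilent's processed signals (0.029 against 0.036). It also did so without replicate 2 (0.039 against 0.045) and without replicate 3 (0.041 against 0.052). The beta ring lay above the non-ATPases in every setting.

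**Figure D5:**
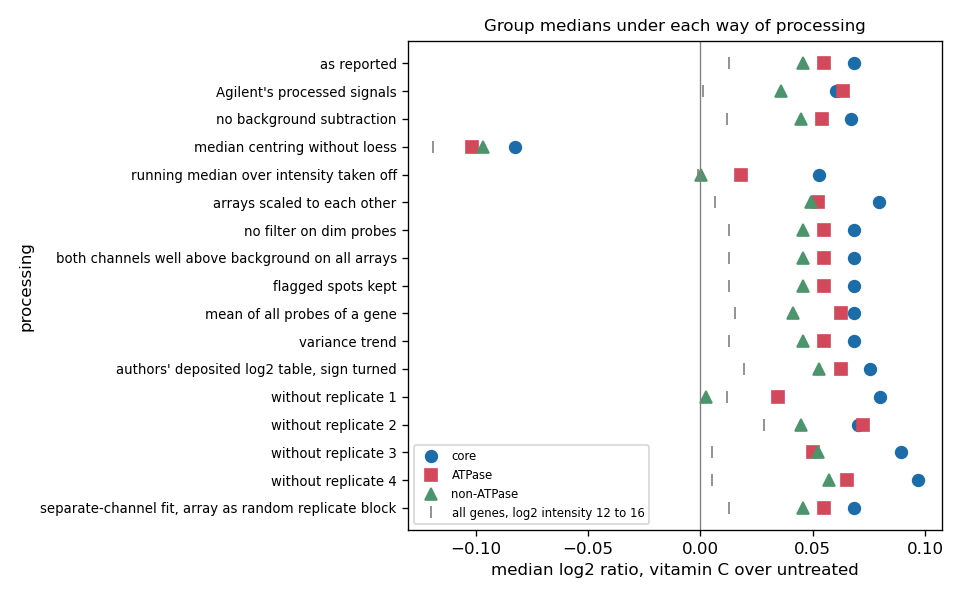
Median log2 ratio of vitamin C over untreated (x axis) of the core, ATPase and non-ATPase genes and of all genes of log2 intensity 12 to 16 under each way of processing (y axis). All 3 medians lie above 0 in every setting except median centring without loess. There they and the 4881 genes of that band lie below 0.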

How the data were processed

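Scanner files of 4 Agilent arrays with 2 colours were used. Each spot's intensity was extracted from the scans by the authors with Feature Extraction (Agilent, version 10.5.1.1), per the file headers. The authors also deposited log2 values, for which the submitters' processing notes name limma without its steps. Its columns correlated with the ratios computed here at -0.95 to -0.98, with medians of 0.0014 to 0.0050, so its sign is opposite; its centring is unknown.

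Here, median signals and backgrounds were corrected with normexp (offset 50) and normalized by loess within each array; the files used hold medians where the plan named means as well. Outlier spots were left out and repeat spots averaged. Of 41174 probes, 25097 (61%) matched 1 symbol through RefSeq accessions (assembly GRCm38.p6). The brightest probe stood for a gene if 1 or both channels exceeded background clearly on 3 of 4 arrays. Ratios were tested against 0 with limma 3.58.1 (R 4.3.3, statmod 1.5.0; Benjamini-Hochberg over 31073 genes, threshold 0.05); the pairing lies in the array ratio. All arrays shared 1 slide. P-values measure the spread between 4 pairs. The self-test on simulated data (200 of 31073 genes changed) recovered 48% of genes changed 1.5 times and 88% changed 2 times, with 0.606% of calls false. Its noise was drawn independently for each gene and array. On the real arrays, replicates 1, 3 and 4 correlated with each other at 0.60 to 0.78 and with replicate 2 at -0.18 to 0.020. Its recovery therefore need not hold for these arrays. No change of less than 1.5 times was simulated, and the folds of the subunit genes ran from 0.819 (Psma4) to 1.21 (Psma7). The self-test thus gives no recovery for changes of that size. Members and lists were chosen with earlier results of these data known. Some genes of the list on ubiquitin and its activation are not reported here.

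Named genes were, in each group, the highest and lowest mean, the smallest p, up to 4 with an unadjusted p under 0.05 and those with probes of opposite sign; of other lists, the 2 with the smallest p and Psmb8, Psmb9, Psmb10, Psme1, Psme2, Nfe2l1 and Nfe2l2. Marker lists other than those of hepatocytes and macrophages had medians of 0.090 (T and NK cells), 0.084 (B cells), 0.015 (endothelium), -0.053 (stellate cells), -0.028 (cholangiocytes) and -0.67 (erythroid cells). Alternatives covered background, loess, scaling, filters, flags, probe choice, variance trend, the deposited table, a separate-channel fit and each replicate left out.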

Additional observations from a re-analysis of the deposited data

Results flagged for a closer look

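Of 55 results examined for a single array far from the other 3, 5 had one; chance alone gives about 1 in 20. Psmc2 stood at -0.023 on replicate 2, with the others at 0.12. Psmd7 stood at 0.30 on replicate 4, with the nearest other array at 0.22. Psmd11 stood at -0.075 on replicate 3, against -0.032 for the nearest. Ubqln4 stood at -0.0079 on replicate 2, against 0.44, and Vcp at -0.31 on replicate 2, against -0.15.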

How the results depend on the processing

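Of 16 alternatives, 5 leave the subunit ratios identical by construction (both filters, kept spots, variance trend, separate channels). Over the other 11, the medians of the subunit groups moved by less than the spread between arrays in 10; median centring without loess put them at -0.092 (all 32), -0.089 (alpha ring), -0.042 (beta ring), -0.10 (ATPase) and -0.097 (non-ATPase). The fits that called genes were median centring without loess (9628 genes, 4 of them subunits), separate fitting of channels with a random replicate block per array (981 and 3) and those with an array left out (0 to 8764, and 0 to 6, the highest without replicate 2). The 7 subunit genes higher at an unadjusted p under 0.05 became 4 with Agilent's processed signals, 4 after subtracting a running median, 0 without loess and 3 to 8 with an array left out (3 without replicate 1 or 3). The 2 lower became 6 without loess and 0 to 2 with an array left out (1 without replicate 1 or 3, 0 without replicate 4). The causes of these changes were not tested. Without loess 18 subunit genes turned from above to below 0. Among the genes named by rule, ratios changed sign for Psmb1 (-0.11 without loess, -0.015 with a running median off, -0.0016 to 0.072 with an array left out) and Psmb6 (-0.025 without loess), for Psmd3 (-0.035 without loess) and Psmc5 (0.0037 with processed signals), and for Psmb8 (-0.075 with processed signals, -0.030 without loess). Others were Psmb9 (-0.080 with processed signals, -0.11 without loess, -0.020 with a running median off, -0.048 to 0.087 with an array left out, -0.046 without replicate 2), Psme1 (-0.080 without loess), Uba1 (-0.043 without loess, -0.085 as the mean of all probes) and Nfe2l1 (-0.11 without loess, -0.010 with a running median off, -0.018 with arrays scaled, -0.049 to 0.071 with an array left out, -0.0067 without replicate 4). The number of arrays limits the precision. In the self-test 48% of changes of 1.5 times were recovered, but its noise was independent between arrays, so this share need not hold here. Smaller changes, such as those of the subunit genes, were not simulated.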
